A study of Mus musculus with 6 samples.

Results

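The genes described here encode the dystrophin-associated complex of the muscle membrane and a membrane repair protein. They are 9 of the 26180 genes with a curated RefSeq transcript: Dmd, Utrn, Sgca, Sgcb, Sgcd, Dag1, Sntb1, Dtna and Dysf. For each, the Lsd1 ChIP-seq peaks were taken whose centre lay in the gene's curated span on mm10 or within 10 kb of either end. These windows covered 4231.6 kb and held 125 of the 95852 peaks of the series. Lsd1 is a histone demethylase that removes methyl groups from histone H3, and a ChIP-seq peak is a stretch of genome where fragments pulled down with an Lsd1 antibody exceed those of the unselected input chromatin.

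The cells were C2C12, a mouse myoblast line that forms myotubes in low serum and can be driven towards adipocytes. Lsd1 was mapped after 1 day under 3 conditions. The myogenic library came from wild-type cells in 2% horse serum. The adipogenic library came from wild-type cells given 10% FCS with a hormone mix (850 nM insulin, 1 nM T3, 5 μM dexamethasone, 0.5 mM isobutylmethylxanthine, 125 nM indomethacin and 1 μM rosiglitazone). LSD1(OE) cells, a G418-selected stable line with a doxycycline-induced lentiviral Flag-LSD1, received the same adipogenic medium; whether the line is 1 clone is not given in the sources used here. Doxycycline and the selected line therefore came with the over-expression, and these cannot be told apart. Each condition had 1 ChIP library and 1 input, so every value below describes a library, no difference has a replicate check, and no test between conditions was possible. The peak lists hold no expression values, so neither the cell type nor the over-expression was checked here.

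The complex links the actin cytoskeleton of the muscle fibre to laminin in the basement membrane. Dystrophin binds actin at one end and dystroglycan at the other, the sarcoglycans brace dystroglycan within the membrane, and syntrophins and dystrobrevins recruit signalling proteins to the cytoplasmic side. Loss of dystrophin, a sarcoglycan or dysferlin causes muscular dystrophy, and the dystrophin homologue utrophin takes its place in immature muscle.

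After duplicates were limited, 46155625 ChIP tags remained for myogenic, 63915769 for adipogenic and 55193310 for LSD1(OE) cells, and 43426, 18893 and 33533 peaks were called. The deepest library thus gave the fewest peaks, and the smallest peak of each library held 27, 35 and 30 tags. Scores (10 times −log10 of the MACS p-value) are not on 1 scale across libraries, because MACS scaled the ChIP tags up to the input by 1.90, 1.28 and 1.82. Libraries are therefore compared by tags per kb of called peak and per 1000000 filtered ChIP tags, called tag density here. Input tags do not enter the density. Each library's own called length enters its density, so a ratio of densities also depends on how wide each peak was called. Intervals are 95% intervals and cover counting error only.

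Lsd1 peaks lay at 8 of the 9 genes in each library, and Dmd was the gene without any. The windows held 65 peaks in the myogenic library, 24 in the adipogenic library and 36 in the LSD1(OE) library. Over all genes, 62.5, 41.2 and 53.9% had a peak in their window. Per 100 kb of window the members had 1.54, 0.57 and 0.85 peaks, against 2.99, 1.35 and 2.27 over all genes. The empty Dmd window made up 2276.2 of the 4231.6 kb, so these member rates do not describe the genes singly. In the myogenic library Sgcd (0.70), Dtna (1.89) and Dag1 (2.53) also lay below 2.99. Utrn (3.40), Dysf (4.50), Sgcb (5.72), Sntb1 (7.30) and Sgca (8.94) lay above it. The 2.99 pools all windows, whereas the median over single genes was 2.38, which Dag1 exceeded. Among the 2432 genes with a span of at least 100 kb the median was 1.15, which Dtna exceeded and Sgcd did not. With the 18893 highest-scoring peaks of each library, the windows held 24, 24 and 21. Without scaling up they held 34, 21 and 21. Here and below, this means a score of at least 50, that of the p-value limit, after division by the library's scaling factor. No p-value was computed anew from unscaled tags, so this setting is an approximation.

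**Figure D1:**
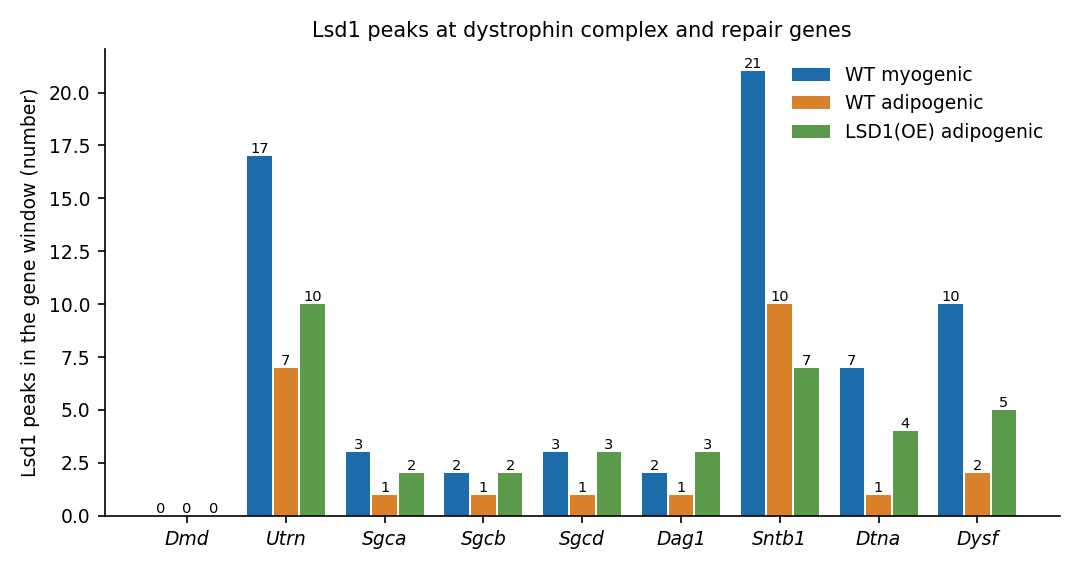
Number of Lsd1 peaks (vertical axis) in the window of each of the 9 genes (horizontal axis) in the 3 ChIP libraries (bars, 1 library per condition). Sntb1 had the most peaks in the myogenic library (21), Utrn followed with 17, and Dmd had 0 in all 3.

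A promoter peak, with its centre within 2000 bp of a curated transcription start site (TSS), was called at 6 members in the myogenic library, 5 in the adipogenic library and 6 in the LSD1(OE) library. The shares over all genes were 46.8, 27.0 and 37.3%. Dag1, Dtna, Dysf, Sgcb and Sntb1 had a promoter peak in all 3 libraries, a pattern that 23.5% of all genes showed. Sgcd had one in the myogenic and LSD1(OE) libraries only, as did 10.8% of all genes. Dmd, Utrn and Sgca had none.

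Dmd encodes dystrophin, the actin-binding rod at the centre of the complex. It is the gene with the 2nd longest curated span in the annotation, 2256181 bp at chrX:82948870-85205050 on the plus strand. No peak centre lay in that span or its flanks in any library. The nearest peaks lay 1877.6 kb upstream in the myogenic library, 368.6 kb downstream in the adipogenic library and 368.7 kb downstream in the LSD1(OE) library. None of the 14 Dmd starts in GENCODE vM21 had a peak nearby, the closest pairs being 1877586, 395717 and 395783 bp apart.

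The empty Dmd window stood on a chromosome with few peaks. The X chromosome held 2.53, 0.52 and 1.51 peaks per Mb in the myogenic, adipogenic and LSD1(OE) libraries, against 17.46, 7.64 and 13.51 on the autosomes. At the X chromosome's own rate, a window of this length would hold 5.8, 1.2 and 3.4 peaks. Long genes without peaks were not rare: of the 51 genes with a span of 1000 kb or more, 18, 31 and 25 had no peak, and 17 had none in any library. The part of chromosome and length in the Dmd result was not tested.

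Utrn encodes utrophin, the autosomal homologue of dystrophin, and unlike Dmd had peaks in all 3 libraries. Its window, a 479.5-kb span (chr10:12382188-12861735, minus strand) with 10-kb flanks, held 17 myogenic, 7 adipogenic and 10 LSD1(OE) peaks, of which 1, 2 and 1 lay upstream of the span, in 18 merged regions (peaks of different libraries that overlapped by at least 1 bp). At the average rate of chromosome 10 the window would hold 11.7, 5.3 and 8.1. No peak centre lay more than 287.9 kb downstream of the start in any library, so the 3′ end of the gene was free of called peaks.

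The strongest member peak of the myogenic library lay upstream of Utrn. It spanned chr10:12867065-12870084, held 299 tags (266 to 335) and scored 1095.1, higher than 97.5% of that library's peaks. The LSD1(OE) library had a single peak there with 182 tags and a score of 446.5. The adipogenic library had 2 peaks side by side there, with 71 and 173 tags and scores of 69.0 and 148.1. The peak centres lay 5.7 to 7.2 kb upstream of the curated Utrn TSS, and so outside the promoter window.

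Other annotated starts of Utrn lay inside this region. GENCODE vM21 places 4 Utrn starts there, 6.4 to 7.6 kb upstream of the curated TSS. The longest of these transcripts, Utrn-205, spans 486.0 kb and begins at chr10:12869365, within called peaks of all 3 libraries and 18 bp from the myogenic summit. RefSeq's predicted transcripts start there too, the nearest 66 bp from the centre of the myogenic peak. With GENCODE starts in place of curated ones, an alternative chosen after these peaks were seen, Utrn had a promoter peak in all 3 libraries and the member counts were 7, 6 and 7. By the same starts, 28.2, 16.1 and 22.6% of 55304 GENCODE genes had one.

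**Figure D2:**
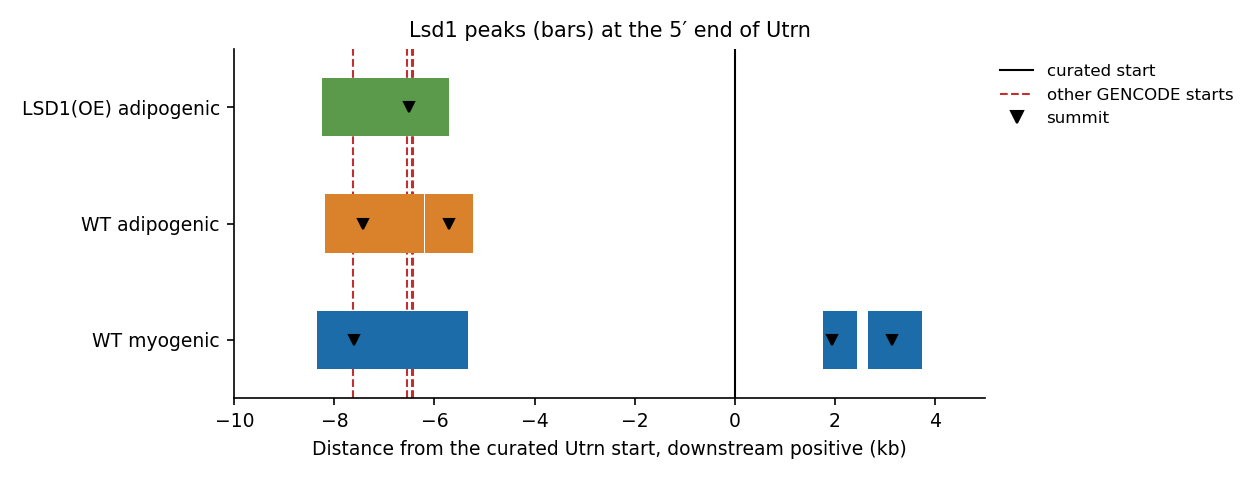
Called Lsd1 peaks (bars) and their summits (triangles) by distance in kb from the curated Utrn start, 1 row per ChIP library; lines mark the curated start and the other GENCODE starts. All 3 libraries had peaks over the 4 upstream GENCODE starts, and only the myogenic library had peaks within 4 kb downstream of the curated start.

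The letters differ between the 2 positions. Shown here are 150 bases around the myogenic summit upstream of Utrn (chr10:12869272-12869421) and 150 bases at the curated TSS (chr10:12861686-12861835), both on the minus strand of mm10 and read 5′ to 3′, with CpG dinucleotides, the site of vertebrate DNA methylation, in capitals. The upstream stretch has 21 CpGs and 76.7% GC, and the stretch at the curated TSS has 0 and 38.0%.
Utrn upstream summit: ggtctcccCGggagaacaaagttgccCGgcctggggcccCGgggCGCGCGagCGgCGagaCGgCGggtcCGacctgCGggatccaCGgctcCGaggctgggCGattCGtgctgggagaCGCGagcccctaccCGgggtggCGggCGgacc
Utrn curated start: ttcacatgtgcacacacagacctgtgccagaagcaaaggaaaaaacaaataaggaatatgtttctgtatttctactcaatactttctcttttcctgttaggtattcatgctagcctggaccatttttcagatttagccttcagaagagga

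The tag density of the region upstream of Utrn was 2.15 (1.91 to 2.40) in the myogenic library, 1.30 (1.14 to 1.47) in the adipogenic library and 1.29 (1.11 to 1.5) in the LSD1(OE) library. The adipogenic and LSD1(OE) values overlapped, and both lay below the myogenic one. The adipogenic to myogenic ratio was 0.60 (0.51 to 0.72) and the LSD1(OE) to myogenic ratio was 0.60 (0.50 to 0.73). The median over all regions called in both libraries was 0.80 for the former pair and 0.88 for the latter, so the Utrn ratios were lower than most.

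Within Utrn, 3 further regions had a peak in all 3 libraries, all in intron 1. The strongest lay 40.4 kb downstream of the curated TSS, with 141 myogenic, 104 adipogenic and 159 LSD1(OE) tags and scores of 594.6, 212.6 and 572.8, the latter 2 being the highest at Utrn in their libraries. Its density was 1.76 (1.48 to 2.08), 1.4 (1.15 to 1.70) and 1.62 (1.38 to 1.90), and the intervals overlapped. The region at 50.7 kb had densities of 1.09, 1.06 and 1.13, and that at 37.9 kb had 1.00, 1.22 and 0.99. The adipogenic library was thus the highest of the 3 at 37.9 kb, with an adipogenic to myogenic ratio of 1.22 (0.89 to 1.68). Another 3 Utrn regions, 73.1, 103.4 and 287.8 kb downstream, had myogenic and LSD1(OE) peaks and no adipogenic peak.

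Dag1 encodes dystroglycan, the precursor of the laminin-binding α subunit and the membrane-spanning β subunit to which dystrophin and utrophin bind. The gene spans chr9:108204861-108263958 on the minus strand and has 2 curated starts. Its promoter peak held 179 (154 to 207) tags in the myogenic library, 127 (106 to 151) in the adipogenic library and 193 (167 to 222) in the LSD1(OE) library. The LSD1(OE) peak scored 1021.4 and ranked above 97.3% of that library's peaks, whereas the adipogenic peak scored 240.4 and ranked above 81.2%.

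Dag1 was the member promoter with the highest LSD1(OE) density. Tag density was 1.93 (1.66 to 2.24), 1.34 (1.12 to 1.60) and 2.19 (1.89 to 2.52) in the myogenic, adipogenic and LSD1(OE) libraries. The adipogenic to myogenic ratio was 0.69 (0.55 to 0.88). The LSD1(OE) to adipogenic ratio was 1.63 (1.30 to 2.06), against a median of 1.09 over 13053 regions called in both libraries. Of the 16 member regions called in both, Dag1's was the only one whose interval lay above 1, and none lay below. The LSD1(OE) to myogenic ratio was 1.13 (0.92 to 1.4), an interval that includes equality. The other Dag1 peaks had lower scores than the promoter: a region 62.5 kb downstream of the TSS, beyond the end of the gene, had myogenic (score 185.9) and LSD1(OE) (score 69.9) peaks, and an intron 1 peak was called in the LSD1(OE) library alone (score 52.8). All of these were nearer to a start of the gene Bsn, 10785, 11044 and 35858 bp away, than to one of Dag1.

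Sntb1, which encodes β1-syntrophin, an adaptor that binds dystrophin and dystrobrevin, had the most peaks of the 9 genes in both wild-type libraries, while Utrn had more in LSD1(OE). Its 267.8-kb span (chr15:55639154-55906949, minus strand) and flanks held 21 myogenic, 10 adipogenic and 7 LSD1(OE) peaks, or 7.30, 3.47 and 2.43 per 100 kb. Among 2432 genes with a span of at least 100 kb, Sntb1 came at place 137 by the myogenic rate, 161 by the adipogenic rate and 534 by the LSD1(OE) rate, counted from the highest. Chromosome 15 itself was rich in peaks, with 35.85, 18.95 and 27.37 per Mb against 16.65, 7.14 and 12.90 on the other autosomes. At the chromosome's rate the window would hold 10.3, 5.5 and 7.9, so the counts found were above it in both wild-type libraries and not in LSD1(OE).

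The Sntb1 promoter peak held 255 myogenic, 211 adipogenic and 106 LSD1(OE) tags over called lengths that differed, from chr15:55904187-55907296 in the myogenic library to chr15:55905857-55907223 in the LSD1(OE) library. Its scores were 692.0, 224.4 and 306.9, while the highest adipogenic score at Sntb1, 331.9, belonged to the region at 159.8 kb. Density was 1.78 (1.57 to 2.01), 1.62 (1.41 to 1.85) and 1.4 (1.15 to 1.70). The adipogenic to myogenic ratio was 0.91 (0.76 to 1.10), the LSD1(OE) to adipogenic ratio 0.87 (0.68 to 1.10) and the LSD1(OE) to myogenic ratio 0.79 (0.62 to 1.00). The first 2 intervals include equality and the last reaches it, but the called lengths of 3110, 2038 and 1367 bp enter these densities, so they do not show that the promoter was alike in the 3 libraries.

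Along the gene body, 4 more Sntb1 regions had peaks in all 3 libraries, 56.7, 100.6, 157.7 and 159.8 kb downstream of the TSS. The region at 56.7 kb, in intron 1, had a density of 1.87 (1.59 to 2.18) in the myogenic library, 1.36 (1.15 to 1.58) in the adipogenic library and 1.22 (0.95 to 1.54) in LSD1(OE). Its adipogenic to myogenic ratio was 0.73 (0.58 to 0.91) and its LSD1(OE) to myogenic ratio 0.65 (0.49 to 0.87), so both adipogenic-medium libraries lay below the myogenic one. The pair at 157.7 and 159.8 kb had myogenic densities of 1.71 and 1.48, adipogenic densities of 1.29 and 1.16, and LSD1(OE) densities of 1.15 and 1.10. The region at 100.6 kb was nearly level, at 1.22, 1.18 and 1.11. Another 4 Sntb1 regions had myogenic and adipogenic peaks without an LSD1(OE) peak, which accounted for 4 of the 5 member regions of that kind (the other lay in Utrn).

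**Figure D3:**
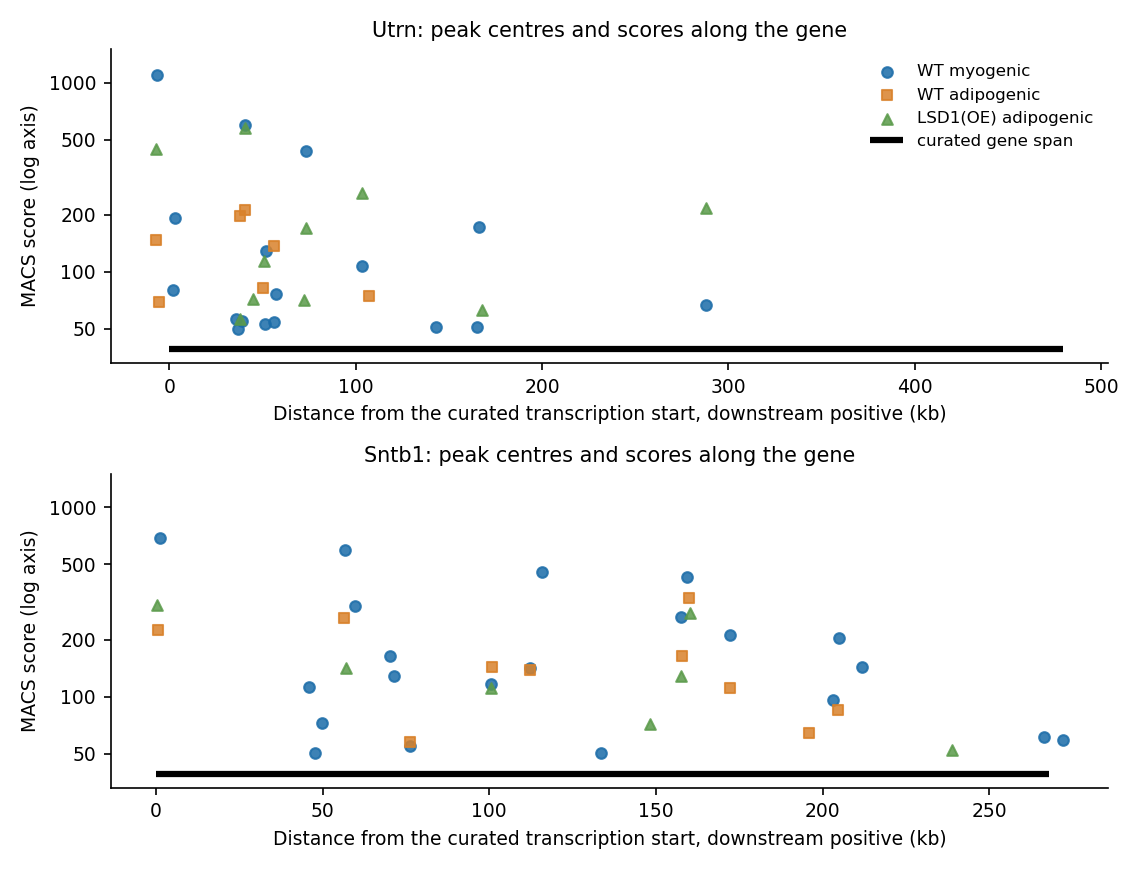
MACS score (vertical axis, logarithmic) of each Lsd1 peak against the distance of its centre from the curated start in kb (horizontal axis) at Utrn and Sntb1, by ChIP library; scores are not on 1 scale across libraries. The highest myogenic score at Utrn, 1095.1, lies upstream of the gene span, and Sntb1 peaks run from the start to beyond the 3′ end.

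Of the 3 sarcoglycan genes, Sgcb and Sgcd had promoter peaks and Sgca did not. Sgcb (β-sarcoglycan, chr5:73632749-73647737, minus strand) had a promoter peak of 114 (94.0 to 137) myogenic, 57 adipogenic and 96 (77.8 to 117) LSD1(OE) tags, with scores of 465.1, 59.4 and 235.4. Density was 1.79 (1.48 to 2.15), 0.99 (0.75 to 1.28) and 1.33 (1.07 to 1.62), the adipogenic interval lying below the myogenic one. The adipogenic to myogenic ratio was 0.55 (0.39 to 0.76), the lowest of the 19 member regions called in both libraries at the 2.4 percentile of all such regions. The LSD1(OE) to adipogenic ratio was 1.35 (0.96 to 1.90), an interval that includes equality. The adipogenic score was at the 11.9 percentile of that library's peaks, and this promoter call was lost at a stricter FDR, a higher score limit or without scaling up. A further region 3.3 kb upstream of Sgcb (myogenic and LSD1(OE)) was nearer to the start of the neighbouring gene Spata18, 479 and 137 bp away.

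Sgcd (δ-sarcoglycan, chr11:46971079-47379325, minus strand) had a promoter peak in the myogenic and LSD1(OE) libraries but not in the adipogenic library. At its TSS, peaks of 84 (67.0 to 104) myogenic and 55 LSD1(OE) tags were centred 13 and 58 bp from the start, with densities of 1.55 (1.24 to 1.92) and 1.14 (0.86 to 1.49). A separate region in intron 1 had 74 adipogenic and 82 LSD1(OE) tags, with densities of 1.10 (0.87 to 1.39) and 1.30 (1.03 to 1.61), and no myogenic peak. The adipogenic peak there was centred 2147 bp from the TSS and the LSD1(OE) peak 1976 bp, so the 2000-bp limit fell between them. The highest scores at Sgcd were 203.0 in the myogenic library, at a region of its own 74.0 kb downstream, and 98.9 and 207.7 in the intron 1 region. Under a limit of 5000 bp, Sgcd had a promoter peak in all 3 libraries. Its window held 3 myogenic, 1 adipogenic and 3 LSD1(OE) peaks, and at the rate of chromosome 11 would hold 12.6, 6.0 and 9.9.

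Sgca (α-sarcoglycan, chr11:94962777-94976327, minus strand) had its peaks on either side of the gene. A region called in all 3 libraries lay 18.1 kb downstream of the TSS, beyond the end of the 13.6-kb gene, with 99 (80.5 to 121) myogenic, 71 adipogenic and 60 LSD1(OE) tags and scores of 269.0, 92.2 and 132.8. Its densities, 1.33 (1.08 to 1.62), 1.09 (0.85 to 1.38) and 1.19 (0.91 to 1.54), overlapped. The next gene on that side, Col1a1, ends at chr11:94953042 and had promoter peaks of its own in all 3 libraries. The start nearest to the downstream region was that of Hils1, a gene within the Sgca span, 9263 to 9396 bp away. Upstream, a region centred 3008 bp (myogenic) and 2746 bp (LSD1(OE)) from the TSS had 61 and 86 (68.8 to 106) tags, scores of 156.6 and 246.0, and no adipogenic peak.

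Dtna encodes α-dystrobrevin, a dystrophin-related scaffold on the cytoplasmic side of the complex, and has 3 curated starts on chromosome 18. Its 7 myogenic, 1 adipogenic and 4 LSD1(OE) peaks had median scores of 72.9, 69.9 and 113.6. The middle start carried a peak in all 3 libraries, with 61 myogenic, 58 adipogenic and 73 LSD1(OE) tags, scores of 150.6, 69.9 and 170.1, and overlapping densities of 1.35, 1.03 and 1.23. At the most upstream start, 43 myogenic and 94 LSD1(OE) tags (scores 80.1 and 245.6) gave densities of 1.07 (0.77 to 1.44) and 1.32 (1.07 to 1.62), without an adipogenic peak. The most downstream start had myogenic peaks alone, centred 42 and 842 bp from it, with 33 and 32 tags. The 3 Dtna starts thus differed in the libraries that called a peak, although the peaks at the most downstream start were close to the smallest that could be called.

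Dysf encodes dysferlin, a calcium sensor that brings vesicles to membrane wounds for resealing. It spans 202.5 kb (chr6:84008598-84211059, plus strand) and had 10 myogenic, 2 adipogenic and 5 LSD1(OE) peaks in 14 regions. Its promoter peak held 111 (91.3 to 134) myogenic, 68 adipogenic and 82 (65.2 to 102) LSD1(OE) tags, the highest-scoring Dysf peak of each library (347.9, 98.3 and 191.5), with densities of 1.44 (1.19 to 1.74), 1.15 (0.89 to 1.45) and 1.24 (0.99 to 1.54). The 3 intervals overlapped, and the adipogenic to myogenic ratio was 0.80 (0.58 to 1.09), equal to the median over all regions. A downstream alternative start of Dysf, at chr6:84019386 in intron 1 of the longest transcript, had a weak myogenic peak alone (36 tags, score 63.8). In all, 9 of the 14 Dysf regions, that start included, were called in the myogenic library only, as were 35.9% of all merged regions. The strongest of them scored 198.0 in intron 43, and the others scored 51.6 to 96.8. Of the 10 myogenic Dysf peaks, 6 scored under 50 without scaling up, so many of these calls were weak. A region in intron 1 had adipogenic (49 tags, centre 2192 bp from the TSS) and LSD1(OE) (45 tags, 2629 bp) peaks and no myogenic peak, the arrangement also seen at Sgcd. These 2 Dysf peaks were weak, with scores of 53.2 and 82.4, or 41.7 and 45.1 without scaling up. At an FDR of at most 0.1% or a score of at least 100, 0 member regions had this arrangement.

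Over the 9 genes, the peaks merged into 78 regions. Of these, 36 (46.2%) were called in the myogenic library alone, as were 35.9% of all 56729 merged regions. A peak in all 3 libraries was called at 14 (17.9%), against 20.6%, and 5 of these were promoter regions. The LSD1(OE) library alone called 11 (14.1%), against 20.8%, and the adipogenic library alone called 2 (2.56%), against 3.70%. Myogenic and LSD1(OE) peaks without an adipogenic one were at 8 (10.3%), against 12.2%, myogenic and adipogenic peaks at 5 (6.41%), against 4.38%, and adipogenic and LSD1(OE) peaks at 2 (2.56%), against 2.45%. With equal numbers of the highest-scoring peaks, 8 of 38 member regions (21.1%) were myogenic only, against 16.1% of all, and 3 (7.89%) were in the myogenic and LSD1(OE) libraries, against 7.70%.

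At the 14 regions called in all 3 libraries, tag density was highest in the myogenic library at 11, in the adipogenic library at 1 and in LSD1(OE) at 2. The adipogenic library was lowest at 7 and LSD1(OE) at the other 7. This order depends on the measure, since density leaves out the input. At most of the 14 regions the deposited fold enrichment over local background was higher in the adipogenic than in the myogenic library. It was 4.01 against 3.10 at the Dysf promoter, but 3.55 against 4.49 at the Dag1 promoter. Of 19 member regions called in the myogenic and adipogenic libraries, 16 had the lower density in adipogenic medium, with a median log2 ratio of −0.31, close to the −0.32 over all 14149 such regions. For LSD1(OE) against myogenic the member median was −0.15 and that over all regions −0.19. For LSD1(OE) against adipogenic these were 0.10 and 0.13. The member medians were thus close to those of the libraries as a whole. Ratios with an interval wholly below 1 were found for adipogenic against myogenic at 5 regions (the region upstream of Utrn, the Dag1 and Sgcb promoters, and Sntb1 at 56.7 and 159.8 kb). For LSD1(OE) against myogenic they were also at 5 regions (upstream of Utrn, the Sgcb promoter, and Sntb1 at 56.7, 157.7 and 159.8 kb).

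**Figure D4:**
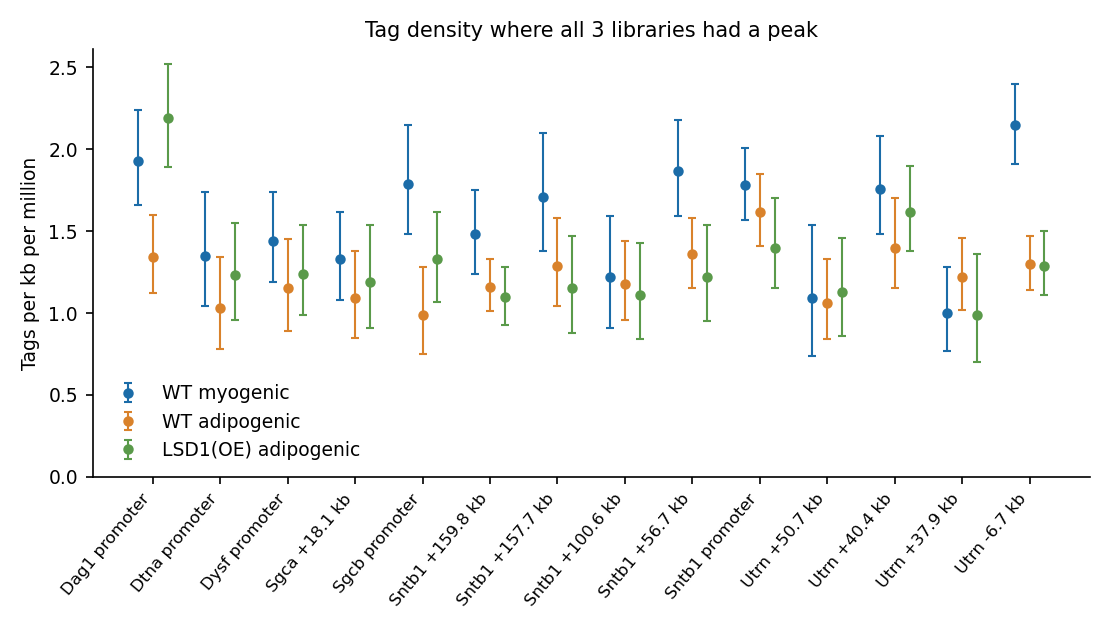
Tag density (vertical axis, tags per kb of called peak per 1000000 filtered ChIP tags) at the 14 member regions called in all 3 libraries, named by gene and distance in kb from the curated start; bars are exact 95% Poisson intervals of 1 library each and cover counting error only. Dag1 is highest in LSD1(OE), at 2.19, and the region upstream of Utrn is highest in the myogenic library, at 2.15.

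The member promoters with peaks differed in their CpG content. At the summits of the strongest promoter peaks of Dag1 (chr9:108263753-108263902, LSD1(OE) library), Sntb1 (chr15:55906700-55906849, myogenic) and Sgcb (chr5:73647312-73647461, myogenic), 150 bases held 27, 16 and 11 CpGs. These stretches are printed on the minus strand of mm10, with CpG in capitals, to be set beside the region upstream of Utrn and beside both curated Dmd starts (chrX:82948770-82948919 for the longest span and chrX:85048195-85048344 for the downstream one, plus strand), where no peak was called. The Dmd stretches held 2 and 13 CpGs, so the downstream one, with 74.7% GC, had more CpGs than the Sgcb summit.
Dag1 promoter summit: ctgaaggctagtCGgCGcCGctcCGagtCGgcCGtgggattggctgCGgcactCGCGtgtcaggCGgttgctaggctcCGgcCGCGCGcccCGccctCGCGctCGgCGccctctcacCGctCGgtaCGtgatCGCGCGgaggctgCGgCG
Sntb1 promoter summit: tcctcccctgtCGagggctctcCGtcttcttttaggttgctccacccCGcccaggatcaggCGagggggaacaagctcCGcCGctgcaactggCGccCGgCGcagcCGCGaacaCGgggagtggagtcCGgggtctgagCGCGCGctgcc
Sgcb promoter summit: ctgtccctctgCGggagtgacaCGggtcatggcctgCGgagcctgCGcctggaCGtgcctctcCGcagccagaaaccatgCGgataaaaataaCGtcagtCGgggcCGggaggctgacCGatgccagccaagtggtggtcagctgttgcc
Dmd start: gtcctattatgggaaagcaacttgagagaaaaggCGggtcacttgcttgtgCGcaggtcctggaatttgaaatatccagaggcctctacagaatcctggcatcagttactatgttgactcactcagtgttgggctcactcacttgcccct
Dmd downstream start: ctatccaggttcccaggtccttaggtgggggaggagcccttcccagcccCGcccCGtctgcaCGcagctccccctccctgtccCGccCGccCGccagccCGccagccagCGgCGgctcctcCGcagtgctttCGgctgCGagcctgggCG

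RefSeq promoter sequences of GRCm38.p6, from 250 bases before to 50 after each start, were at hand for 7 of the 9 genes, with 10 starts. Promoters with at least 50% GC and a CpG ratio (CpGs found over those expected from the C and G content) of at least 0.6 were called CpG-rich. Over all 32851 promoters, 78.1, 46.7 and 62.7% of the CpG-rich ones had a peak in the myogenic, adipogenic and LSD1(OE) libraries, against 19.9, 10.5 and 15.8% of the others. Both Dag1 starts and that of Sgcb were CpG-rich. The starts without a peak in any library had ratios of 0.13 (Utrn), 0.19 (Sgca) and 0.13 and 0.49 (Dmd). Sgcd and Dysf had peaks at starts with ratios of 0.47, 0.48 and 0.52, which were not CpG-rich by these limits.

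Letters of known transcription factor motifs were searched on both strands in the 300 bases around each summit. An E-box (CANNTG), the element bound by MyoD and other bHLH factors, was found at 53 of 65 myogenic member peaks (81.5%), against 79.7% of all peaks of that library. Its form CAGCTG, which is included in that count, was at 26.2, 25 and 36.1% of myogenic, adipogenic and LSD1(OE) member peaks, against 25.8, 29.3 and 25.9% of all peaks. AP-1 (TGANTCA) was at 16.9, 20.8 and 19.4%, against 18.9, 20.3 and 18.1%. At the member promoter peaks alone, E-box letters were at 10 of 10 myogenic, 4 of 5 adipogenic and 6 of 9 LSD1(OE) peaks, against 65.9, 68.3 and 69.0% of all promoter peaks. CAGCTG was at 6, 2 and 4 of these, against 19.2, 20.0 and 19.5%. Outside promoters, E-box letters were at 78.2, 73.7 and 85.2% of member peaks, against 85.2, 87.2 and 85.7% of all such peaks. CAGCTG was there at 20.0, 21.1 and 33.3%, against 28.5, 34.4 and 28.5%. In both wild-type libraries the member shares outside promoters were thus the lower ones. Dtna alone gave 4 of the 10 myogenic and 3 of the 9 LSD1(OE) promoter peaks, most of them with CAGCTG. The median CpG ratio at member promoter summits was 0.45, 0.73 and 0.43, against 0.73, 0.73 and 0.72 for all promoter peaks. The compared sets thus also differed in CpG content in the myogenic and LSD1(OE) libraries.

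Letters of C/EBP (TTGCNNAA), a factor family of adipocyte differentiation, were at 13 of 65, 5 of 24 and 7 of 36 member peaks (20.0, 20.8 and 19.4%), against 10.4, 11.9 and 12.3% of all peaks. Most of the myogenic matches lay at Sntb1. The adipogenic ones all lay at Sntb1 or Utrn, as did most of those in LSD1(OE), so these shares largely describe 2 genes. Mef2, a factor of muscle differentiation, matched at 5, 1 and 4 member peaks (7.69, 4.17 and 11.1%), against 2.81, 2.15 and 2.06%. TEAD (GGAATG) letters were at 23.1, 20.8 and 22.2%, against 17.7, 16.6 and 16.4%, and Runx (TGNGGT) letters at 47.7, 41.7 and 47.2%, against 52.9, 52.4 and 51.4%. CRE (TGACGTCA) and CArG box letters were at 0 member peaks, against 0.887, 1.04 and 0.832% and 1.57, 1.29 and 1.34% of all peaks. The member summits had a lower GC content, with medians of 46.3, 49.2 and 51.3% against 51.3, 53.0 and 52.0%. Peaks of different libraries at 1 region share their letters, and the counts are small, so these shares are descriptions.

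The following 150-base stretches at strong member summits on mm10 show the E-box letters in capitals for the Dysf promoter (chr6:84009171-84009320, plus strand), the region downstream of Sgca (chr11:94958394-94958543, minus strand) and the Sntb1 region at 56.7 kb (chr15:55850292-55850441, minus strand). Not every strong summit had a match. The stretches at the Dag1 promoter and upstream of Utrn, printed above, held 0 E-boxes. In the stretch from Sgcd intron 1 (chr11:47377486-47377635, minus strand), at an LSD1(OE) summit, the capitals mark a Mef2 match. That region had no myogenic peak, and its adipogenic peak had 0 Mef2 matches around the summit.
Dysf promoter summit: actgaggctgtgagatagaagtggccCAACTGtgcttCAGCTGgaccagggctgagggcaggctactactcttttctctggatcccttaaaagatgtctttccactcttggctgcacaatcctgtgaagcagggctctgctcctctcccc
Sgca downstream summit: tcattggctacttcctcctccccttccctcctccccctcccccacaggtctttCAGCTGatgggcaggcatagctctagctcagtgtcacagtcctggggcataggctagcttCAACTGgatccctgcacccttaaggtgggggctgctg
Sntb1 intron summit: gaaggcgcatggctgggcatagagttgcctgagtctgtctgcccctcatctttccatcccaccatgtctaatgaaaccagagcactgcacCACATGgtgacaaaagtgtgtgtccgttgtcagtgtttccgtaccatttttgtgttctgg
Sgcd intron summit: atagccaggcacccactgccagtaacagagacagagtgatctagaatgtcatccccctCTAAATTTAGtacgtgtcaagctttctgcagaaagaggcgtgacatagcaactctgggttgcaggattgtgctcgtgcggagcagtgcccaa

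The rest of the pathway was taken from 4 lists of 59 further genes. Promoter peaks were called at 46 of them in the myogenic library, 31 in the adipogenic library and 38 in the LSD1(OE) library, against the 46.8, 27.0 and 37.3% of all genes given above. All 3 libraries had a promoter peak at 29 of the 59, against 23.5% of all genes, and none at 12. Myogenic and LSD1(OE) promoter peaks without an adipogenic one were at 8 of the 59, against 10.8% of all genes. The genes of this kind named below are thus not a trait of the pathway.

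Among 10 other genes of the complex, promoter peaks were at 6, 3 and 5 in the myogenic, adipogenic and LSD1(OE) libraries. Sntb2 (β2-syntrophin) and Dtnb (β-dystrobrevin) had promoter peaks in the myogenic and LSD1(OE) libraries and not in the adipogenic one. Of 16 genes that glycosylate dystroglycan so that it can bind laminin, 13, 7 and 10 had promoter peaks, Rxylt1 having the highest myogenic score (911.7). Pomk and Dpm3 of that list lacked an adipogenic promoter peak and had the other 2.

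Of 10 laminin and integrin genes, which supply the complex's extracellular ligands and a parallel receptor, 8, 6 and 9 had promoter peaks. Itgb1 (integrin β1) had the highest myogenic score, 634.6, while Lamb1 and Agrn had myogenic and LSD1(OE) peaks without an adipogenic one. Of 23 other membrane repair genes, 19, 15 and 14 had promoter peaks. The highest myogenic score was 1280.3 at Ehd1, which had 879.4 and 1833.2 in the adipogenic and LSD1(OE) libraries. Trim72 (MG53), which nucleates the repair patch, had promoter peaks in the myogenic (score 172.6) and LSD1(OE) (score 53.2) libraries and none in the adipogenic library.

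**Figure D5:**
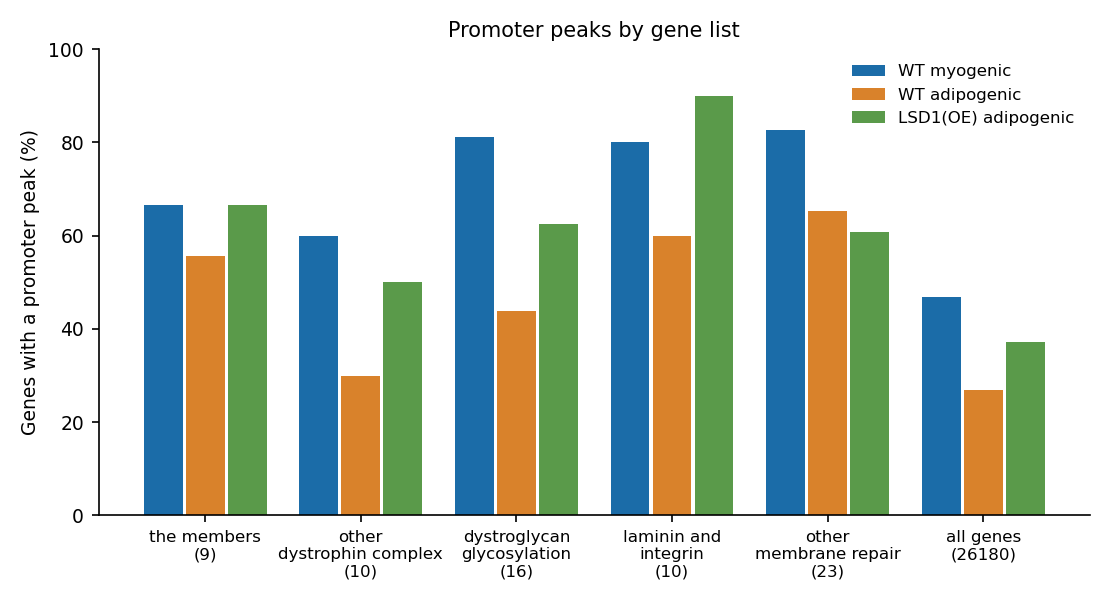
Percentage of genes with a promoter peak (vertical axis) among the 9 members, the 4 lists of further pathway genes and all 26180 genes (horizontal axis, number of genes in brackets), by ChIP library. In each list the adipogenic bar is below the myogenic bar, as it is for all genes (27.0 against 46.8%).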

How the data were processed

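The authors mapped single-end reads to mm10 with Bowtie (Bowtie2 per the labels) and called peaks with MACS 1.4.2 (per the file headers; the labels name 1.41), each Lsd1 ChIP library against its own input and without pooling, at an FDR under 1%. The deposited tag counts are raw counts of ChIP tags per peak. Scores, as deposited, give the MACS p-value as 10 times −log10. The deposited fold enrichment is a ratio over the local background and was used only beside tag density at regions called in all 3 libraries. The deposited FDR is in percent, and its highest values were 0.37, 0.73 and 0.44.

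Peaks were assigned to genes with the RefSeq annotation of GRCm38.p6, the build of the files, using curated transcripts (31647 TSSs), in Python 3.11.15. Intervals of tag counts were exact Poisson and those of ratios exact binomial (scipy 1.17.1). All 68 listed symbols matched. Assignment, merging and motif search were tested on simulated data. The members and gene lists were chosen with earlier results of these data known. The text names all members, each of their promoter regions and regions with a peak in all 3 libraries, and, of each further list, the gene with the highest myogenic promoter score and those with myogenic and LSD1(OE) promoter peaks only. Some results under this rule are not reported here. Sequences came from the RefSeq genome and promoter table, and those at the strongest peaks outside promoters of Dag1, Dysf, Sgcb and Sgcd were left out. The 150-base stretches left out held 0 E-boxes. Sequences at starts without a peak were added after the peaks were seen. No sequence is given for Dtna. Stricter peak sets, equal numbers of peaks, scores without scaling up and other promoter limits were tried as alternatives, and RefSeq predicted and GENCODE starts were added after seeing the data.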

Additional observations from a re-analysis of the deposited data

How the results depend on the processing

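No paired analysis was possible because each condition had 1 ChIP library and no test was made. Of 93 values recomputed under 14 alternatives, 61 stayed within 1.5 times and 32 moved by more. The counts of member peaks in the myogenic, adipogenic and LSD1(OE) libraries moved from 65, 24 and 36 to 31, 11 and 17 at an FDR of at most 0.1%, and to 31, 12 and 21 at a score of at least 100. With equal numbers of the highest-scoring peaks the myogenic and LSD1(OE) counts were 24 and 21, and without scaling up they were 34 and 21, the adipogenic count staying within 1.5 times. The order of the 3 libraries held in 5 of 7 alternatives, some of which changed only how peaks were assigned and not the peak lists. It did not hold with equal numbers (24, 24 and 21) or without scaling up (34, 21 and 21). Members with an adipogenic promoter peak moved from 5 to 2 (Dag1 and Sntb1) at both the stricter FDR and the higher score, where the share of all genes went from 27.0% to 16.2 and 18.2%. Regions in all 3 libraries moved from 14 to 7 and 8 under these 2 settings. Myogenic-only regions moved from 36 to 15 (FDR), 13 (score), 8 (equal numbers) and 15 (not scaled up), and regions in the myogenic and LSD1(OE) libraries from 8 to 3 with equal numbers and 5 without scaling up. Every one of these settings keeps fewer peaks. After division by the scaling factor, 47.7% of myogenic, 12.5% of adipogenic and 41.7% of LSD1(OE) member peaks scored under 50, the score of the p-value limit. The shares of all peaks were 41.9, 16.2 and 40.5%. With a promoter limit of 5000 bp, Utrn gained a promoter peak in the myogenic library, Sgca in the myogenic and LSD1(OE) libraries and Sgcd in the adipogenic library. By summit, Utrn gained one in the myogenic library, and within 1000 bp Sntb1 lost its myogenic one.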
